A study of Mus musculus with 24 samples.

Results

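Genes of the histamine, dopamine and serotonin pathways were followed through the hypothalamus of obese mice. They were chosen by name (Hdc, Hrh3, Th, Ddc, Slc6a3, Slc18a2, Maoa, Maob, Drd2 and Htr2c), 10 of the 45706 genes in the count table, and not by their values in a comparison. Whole hypothalamus was collected from double-housed mice with diet-induced obesity, with a mean body weight of 53 g. They received isotonic saline, PSD-95i or PICK1i once daily for 5 days and were killed 2 h after the last injection. PSD-95i blocks PSD-95, which anchors glutamate receptors at the synapse, and PICK1i blocks PICK1, which helps to move glutamate receptors in and out of the cell surface. The labels give the targets and the protocol gives the compounds, so UCCB01-147 at 25 mg/kg for PSD-95i and mPD5 at 56 mg/kg for PICK1i are matched from what is known of these compounds. The sources used here do not give strain, sex or age. Each group has 8 libraries, but the protocol gives 6 mice for saline and 8 for each inhibitor. No label ties a library to a mouse, so the p-values measure the spread between libraries, which may in part be technical.

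Histamine in the brain is made by neurons of the tuberomammillary nucleus in the posterior hypothalamus, where Hdc converts histidine to histamine. Dopamine is made from tyrosine by Th and then Ddc. Ddc also completes serotonin synthesis, whose first enzyme is found in the raphe nuclei and not in hypothalamic neurons. Slc18a2 loads all 3 amines into vesicles, Slc6a3 takes dopamine back into dopamine neurons, and Maoa and Maob degrade amines. Hypothalamic dopamine neurons of the arcuate nucleus restrain prolactin release through Drd2 on pituitary lactotrophs, whereas dopamine neurons of the neighbouring ventral midbrain carry high levels of Slc6a3. A dissected hypothalamus therefore holds neurons of several nuclei, and fewer cells of a type cannot be told apart from less RNA per cell in bulk tissue.

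Promoter bases are printed for 5 genes whose levels are compared with one another below, so that the shared and unshared elements can be seen. Each line runs 5′ to 3′ on the gene's strand, from 100 bases before the RefSeq start to 10 bases from the start onward (GRCm38.p6). Capitals mark a cAMP response element (TGACGTCA, which reads the same on both strands) or a part of the NGFI-B response element (AAGGTCA or its reverse complement, both strands searched). The full NGFI-B response element is longer than these letters and was not searched for. The motifs do not overlap each other in these windows.
Th, chr7:142899986-142900095, minus strand: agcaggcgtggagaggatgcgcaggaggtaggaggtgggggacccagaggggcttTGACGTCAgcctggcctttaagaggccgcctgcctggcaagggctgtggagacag
Slc18a2, chr19:59260778-59260887, plus strand: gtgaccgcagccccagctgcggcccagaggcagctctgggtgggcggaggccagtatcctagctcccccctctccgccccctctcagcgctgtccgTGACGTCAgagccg
Ddc, chr11:11898135-11898244, minus strand: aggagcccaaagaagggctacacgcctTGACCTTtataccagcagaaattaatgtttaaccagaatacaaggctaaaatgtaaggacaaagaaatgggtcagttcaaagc
Slc6a3, chr13:73536647-73536756, plus strand: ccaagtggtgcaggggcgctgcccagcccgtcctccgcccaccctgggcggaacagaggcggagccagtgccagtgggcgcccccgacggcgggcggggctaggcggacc
Hdc, chr2:126618669-126618778, minus strand: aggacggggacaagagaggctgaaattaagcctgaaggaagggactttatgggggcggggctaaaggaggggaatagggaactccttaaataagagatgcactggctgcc
The cAMP response element of Th begins at position -45 and that of Slc18a2 at position -4. Over the whole 300-base windows of the RefSeq table, this motif was found in 1.79% of 32851 promoters, and Th and Slc18a2 were the members that held it among the 9 with an entry. The searched part of the NGFI-B response element (AAGGTCA) lies in Ddc at position -73 on the opposite strand, and 4.72% of promoters held those letters. In the printed Ddc line a t follows the capitals, which puts a further a before AAGGTCA on the opposite strand. The full element can therefore be read in the printed bases of Ddc. The share of promoters that hold the full element was not computed. RefSeq gives Ddc another start, with the window chr11:11890399-11890508, in which neither motif was found. A match describes letters in a window and is not evidence of a bound factor.

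Library totals ran from 4762697 to 9228843 estimated counts, with a median of 7628246. All 10 genes passed the filter on low counts, under which 15667 genes were tested. Library composition differed in ways that touch the members. The 9 anterior pituitary markers summed to 62810 and 38975 CPM (counts scaled to a common library total, adjusted by TMM) in saline replicates 2 and 3, against 0 to 53.7 CPM in the other 22 libraries. In PICK1i replicates 1, 2, 5 and 6 mitochondrial transcripts took 13.5% to 16.6% of counts, against 7.88% to 11.2% elsewhere. Many results that rest on these libraries are given with and without them.

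The members' levels were first placed on 1 scale. In TPM (a share of the library's transcripts, corrected for their length), Hrh3 on chr2:180099465-180104488, Hdc on chr2:126593667-126619299 and Ddc on chr11:11814101-11898144 were the most abundant, at 81.6 ± 12.003, 79.5 ± 21.6 and 77.8 ± 16.7 TPM (SD, n = 24). Their means lay within 1 SD of each other. Each SD is a gene's spread between libraries and not the spread of a difference between genes in the same library. The order of the genes was therefore not tested. Maob (chrX:16709282-16817366, minus strand) followed at 51.4 ± 6.16 TPM and Th (chr7:142892752-142931128) at 40.7 ± 15.6 TPM. Maoa, the neighbour of Maob on the plus strand (chrX:16619698-16687818), lay at 30.3 ± 4.40 TPM and Slc18a2 (chr19:59260896-59296012) at 26.8 ± 6.65 TPM. Htr2c (chrX:146962513-147197277) lay at 19.3 ± 5.88 TPM, Drd2 (chr9:49340627-49408177) at 10.4 ± 8.10 TPM and Slc6a3 (chr13:73536747-73578672) at 10.1 ± 12.6 TPM. Maob and Th, Th and Maoa, Maoa and Slc18a2, and Drd2 and Slc6a3 also lay within the larger SD of each pair. The steps from Ddc to Maob, from Slc18a2 to Htr2c and from Htr2c to Drd2 exceeded both SDs. All positions are on GRCm38 and all 10 genes are protein coding. The annotation places other genes over 4 of the members, but none of these exceeded 0.197 CPM in a library.

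The members differed widely in how far they varied between libraries. Maoa and Maob were the steadiest, each spanning 1.49-fold from the lowest to the highest library, with coefficients of variation of 10.3% and 11.05%. Hrh3 spanned 1.67-fold. Hdc spanned 3.02-fold and Th 4.44-fold. Drd2 spanned 8.23-fold and Slc6a3 27.8-fold, with a coefficient of variation of 123%. Inside the groups the spans were often smaller. Drd2 ran from 7.57 to 15.3 CPM and Th from 21.2 to 36.5 CPM with PSD-95i, as the plot of CPM by group shows.

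**Figure D1:**
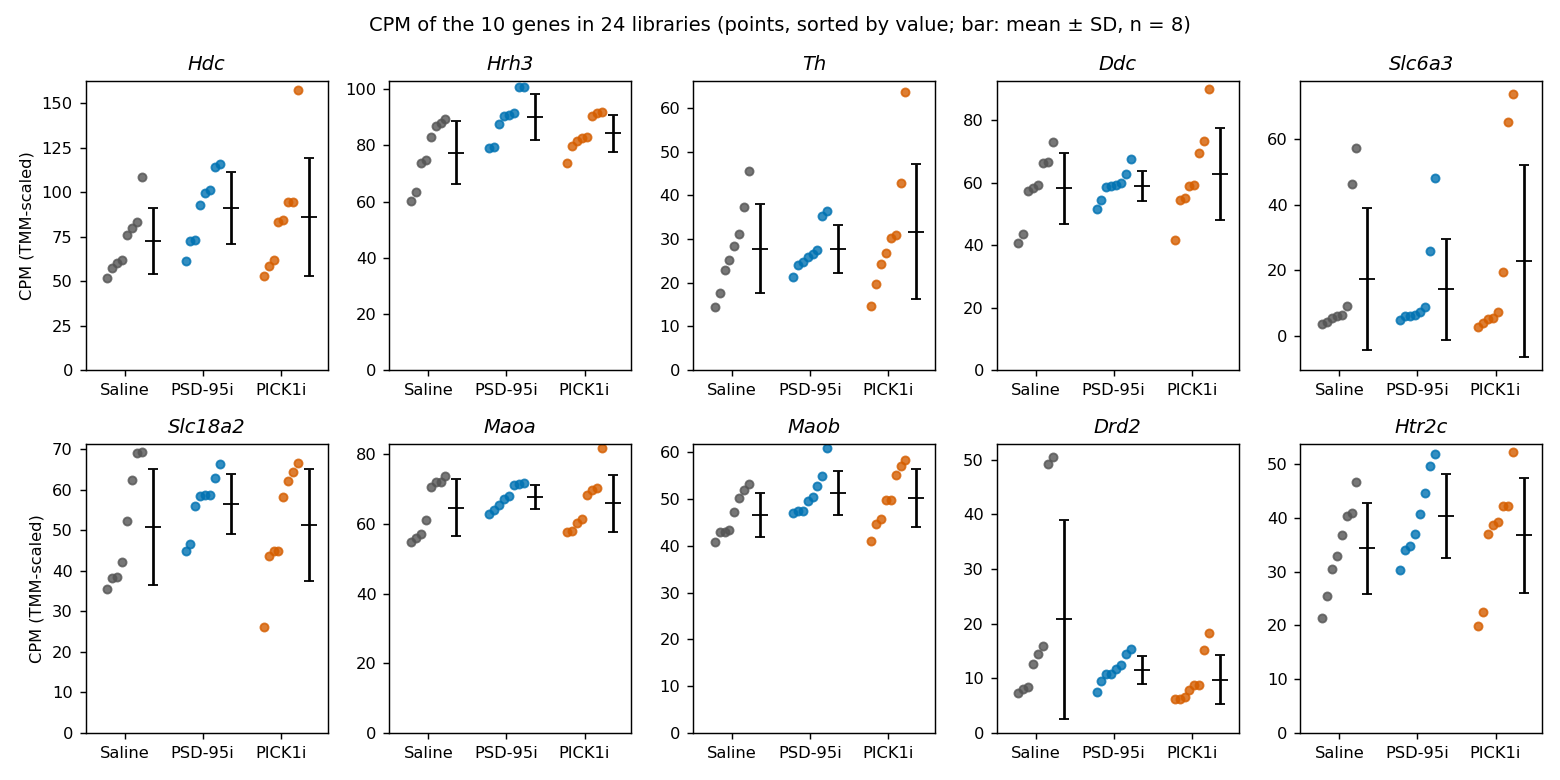
CPM (vertical axis, TMM-scaled) of the 10 genes in every library of the saline, PSD-95i and PICK1i groups (horizontal axis), with points sorted by value and a bar for mean ± SD, n = 8. The groups overlap for every gene, 7 libraries stand high for Slc6a3, and 2 saline libraries stand high for Drd2.

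Histamine synthesis and its receptor were compared with saline first. Hdc lay at 52.1 to 109 CPM in saline (median 69.0), at 61.3 to 116 CPM with PSD-95i (median 96.1) and at 53.0 to 157 CPM with PICK1i (median 83.9). The groups overlapped, and 7 of 8 PSD-95i and 5 of 8 PICK1i libraries lay above the saline median. The log2 fold change of Hdc was 0.33 ± 0.18 (SE) with PSD-95i (adjusted p = 0.497, edgeR) and 0.24 ± 0.18 with PICK1i (adjusted p = 0.400, edgeR). The PICK1i value was 0.064 without PICK1i replicate 1, the library with the highest Hdc, and 0.039 without PICK1i replicates 1, 2, 5 and 6. Hrh3 encodes the histamine H3 receptor, which holds back release from histamine neurons and from other nerve endings. Hrh3 lay at 60.3 to 89.5 CPM in saline (median 78.9), at 79.2 to 101 CPM with PSD-95i (median 90.7) and at 73.6 to 92.0 CPM with PICK1i (median 82.7). All 8 PSD-95i and 7 of 8 PICK1i libraries lay above the saline median. Its log2 fold change with PSD-95i was 0.22 ± 0.08 (adjusted p = 0.356, edgeR). With PICK1i it was 0.12 ± 0.08 (adjusted p = 0.296, edgeR). The lowest Hrh3 values, 63.5 and 60.3 CPM, were those of saline replicates 2 and 3, below all 22 other libraries. Without them the log2 fold changes of Hrh3 were 0.12 with PSD-95i and 0.02 with PICK1i. Without PICK1i replicates 1, 2, 5 and 6 the PICK1i value of Hrh3 was 0.15 (adjusted p = 0.506, edgeR).

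Enzymes and carriers of the dopamine pathway did not pass the test against saline. Th lay at 14.4 to 45.5 CPM in saline (median 26.7), at 21.2 to 36.5 CPM with PSD-95i (median 26.3) and at 14.6 to 63.7 CPM with PICK1i (median 28.5). Its log2 fold changes were -0.01 ± 0.23 with PSD-95i and 0.20 ± 0.23 with PICK1i, both smaller than their standard errors, and without saline replicates 2 and 3 they were -0.20 and 0.011. Ddc had medians of 58.9, 59.2 and 59.1 CPM in saline, PSD-95i and PICK1i, and its widest range was 41.7 to 90.2 CPM with PICK1i. Its log2 fold changes were 0.02 ± 0.12 and 0.12 ± 0.12 with PSD-95i and PICK1i, and -0.11 and -0.014 without saline replicates 2 and 3, which held 43.7 and 40.7 CPM. Slc18a2 lay at 35.5 to 69.3 CPM in saline, at 45.03 to 66.5 CPM with PSD-95i and at 26.1 to 66.7 CPM with PICK1i. Its log2 fold changes were 0.15 ± 0.16 with PSD-95i and 0.02 ± 0.16 with PICK1i, and 0.013 and -0.12 without saline replicates 2 and 3. Slc6a3 had nearly equal medians of 6.13 CPM in saline, 6.75 CPM with PSD-95i and 6.30 CPM with PICK1i, while its log2 fold changes were -0.29 ± 0.71 and 0.44 ± 0.69. Libraries of every group stood far above the rest and are described below.

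Over all 24 libraries the degrading enzymes varied least of the members. Maoa lay at 64.6 ± 8.21 CPM in saline, 67.7 ± 3.47 CPM with PSD-95i and 65.9 ± 8.19 CPM with PICK1i (SD, n = 8). Its log2 fold changes were 0.07 ± 0.07 with PSD-95i and 0.03 ± 0.07 with PICK1i, and 8.0e-04 and -0.036 without saline replicates 2 and 3. Maob lay at 46.6 ± 4.73, 51.3 ± 4.78 and 50.2 ± 6.22 CPM in the same order. All 8 PSD-95i and 6 of 8 PICK1i libraries exceeded the saline median of Maob, with log2 fold changes of 0.14 ± 0.08 (adjusted p = 0.498, edgeR) and 0.10 ± 0.08 (adjusted p = 0.381, edgeR). These were 0.084 and 0.047 without saline replicates 2 and 3. Htr2c encodes the serotonin 2C receptor, through which serotonin lowers food intake. It lay at 21.4 to 46.7 CPM in saline (median 34.8), at 30.2 to 51.8 CPM with PSD-95i (median 38.8) and at 19.9 to 52.1 CPM with PICK1i (median 38.9). Its log2 fold changes were 0.23 ± 0.16 and 0.10 ± 0.17 with PSD-95i and PICK1i, neither past the test. Without saline replicates 2 and 3, which held 21.4 and 25.4 CPM, they were 0.081 and -0.048. Leaving out PICK1i replicates 1, 2, 5 and 6 gave PICK1i values of 0.16 for Maoa, 0.026 for Maob and 0.32 for Htr2c. None of these passed the test.

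Drd2 had the largest fold change of the members, and it rested on 2 libraries. Saline replicates 2 and 3 held 49.2 and 50.6 CPM of Drd2, while the other 6 saline libraries held 7.27 to 15.9 CPM. PSD-95i libraries held 7.57 to 15.3 CPM and PICK1i libraries 6.14 to 18.3 CPM. The high pair was the pair with the pituitary markers given above. Over all libraries the log2 fold change was -1.05 ± 0.36 with PICK1i (adjusted p = 0.0606, edgeR) and -0.84 ± 0.35 with PSD-95i (adjusted p = 0.419, edgeR). DESeq2 placed the PICK1i difference past the threshold at -1.09 (adjusted p = 0.0430). Without PICK1i replicates 1, 2, 5 and 6 the PICK1i value was -0.71 (adjusted p = 0.515, edgeR). Without saline replicates 2 and 3 the log2 fold change was -0.15 with PICK1i (adjusted p = 0.721, edgeR) and 0.05 with PSD-95i (adjusted p = 1.0, edgeR). In edgeR, leaving out saline replicate 4, 6 or 8, or PICK1i replicate 7, put Drd2 past the threshold at -1.18, -1.16, -1.18 and -1.26. Each of those libraries held less Drd2 than the pituitary pair, which stayed in these fits.

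Of the 10 members, 0 passed an adjusted p of 0.05 with PICK1i against saline, where 9.15% of all genes tested did (edgeR), 4.88% higher and 4.27% lower. Without adjustment 1 member, Drd2, had p under 0.05, as did 4509 of all genes tested, or 28.8%. Against saline PSD-95i also had 0 members called, at a background of 0% of genes, with 2 members (Hrh3 and Drd2) and 1719 genes (10.97%) under 0.05 before adjustment. DESeq2 called 1 member with PICK1i, where it called 1991 genes or 13.2% of those it gave an adjusted p, and 0 members and 0 genes with PSD-95i. The median log2 fold change of the members was 0.11 with PICK1i and 0.10 with PSD-95i, against -0.01 and 0.00 over all genes tested. The members' median without saline replicates 2 and 3 was -0.0017 with PICK1i, with 5 of 10 above 0, and 0.033 with PSD-95i. Without PICK1i replicates 1, 2, 5 and 6 the median with PICK1i was 0.17. There 9 of 10 lay above 0, as over all 24 libraries, so the 2 exclusions moved it in opposite directions. These comparisons share the saline libraries.

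**Figure D2:**
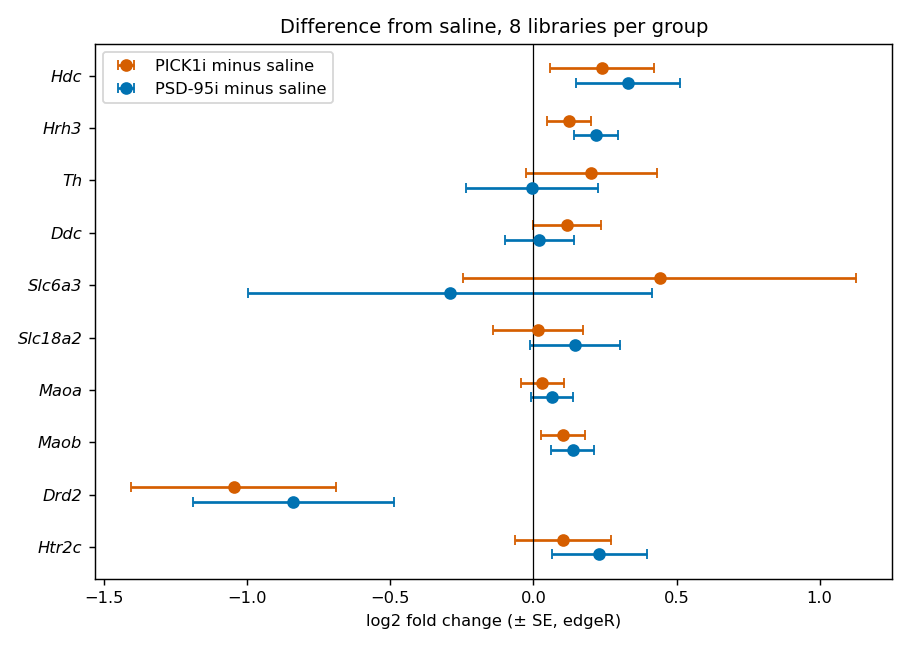
Log2 fold change against saline (horizontal axis) with its standard error for each gene (vertical axis), from the edgeR fit of 24 libraries, for PICK1i in orange and PSD-95i in blue. Drd2 stands to the left at -1.05 and -0.84, Slc6a3 has the widest errors, and the other 8 genes lie between -0.01 and 0.33.

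PSD-95i and PICK1i were set against each other in the same fit. They called 0 of the 10 members, at a background of 0% of genes, and 0 members had p under 0.05 before adjustment, against 3789 of all genes (24.2%). DESeq2 also called 0 members, while it called 1359 genes, 13.7% of those it gave an adjusted p. The smallest p-values were those of Hrh3, with a log2 fold change of 0.10 ± 0.08 for PSD-95i minus PICK1i (adjusted p = 0.468, edgeR), and Slc6a3, with -0.73 ± 0.70 (adjusted p = 0.553, edgeR).

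Splice forms were examined with the same test. The transcript table held 30 transcripts of the members above the filter, at least 1 for each gene, and 0 were called in each comparison, where 2% of all transcripts were called with PICK1i against saline and 0% in the other comparisons. Before adjustment 4, 3 and 1 of the 30 had p under 0.05 with PICK1i against saline, with PSD-95i against saline and between the inhibitors (edgeR). The share of all transcripts under that threshold was not computed, so these counts are not read as a result about the members. Over all genes tested the shares were 28.8%, 10.97% and 24.2% in the same order. The coding transcript carried most of the Hdc signal at 63.4 CPM, beside a retained-intron form at 15.3 CPM. For Th the coding form of 1829 bases had 12.2 CPM and a form annotated for nonsense-mediated decay had 10.2 CPM. Assignment of reads among transcripts of a gene is itself estimated.

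Other genes of the 3 pathways give the setting. Of 38 listed, 24 were tested. With PICK1i against saline 2 rose and 0 fell, a share of the 24 to be read beside the 9.15% of all genes. The 2 genes were Qdpr and Spr. Qdpr regenerates tetrahydrobiopterin, the cofactor of Th, and lay at 147 ± 28.3 CPM in saline and 189 ± 31.3 CPM with PICK1i (SD, n = 8), with a log2 fold change of 0.35 ± 0.10 (adjusted p = 0.0342, edgeR). Spr, which completes the synthesis of that cofactor, lay at 37.9 ± 3.09 and 45.1 ± 5.82 CPM, a log2 fold change of 0.24 ± 0.07 (adjusted p = 0.0355, edgeR). The other listed enzymes of that synthesis did not pass with PICK1i, with log2 fold changes of -0.26 ± 0.16 for Gch1 (adjusted p = 0.275, edgeR) and 0.17 ± 0.09 for Pts (adjusted p = 0.197, edgeR). For Qdpr and for Spr 7 of 8 PICK1i libraries lay above the saline median. Without saline replicates 2 and 3 the values were 0.23 (adjusted p = 0.123, edgeR) and 0.19 (adjusted p = 0.124, edgeR). Without PICK1i replicates 1, 2, 5 and 6 they were 0.17 (adjusted p = 0.531, edgeR) and 0.09 (adjusted p = 0.604, edgeR). Summed oligodendrocyte markers ranged from 1520 to 3586 CPM in saline, 2674 to 3551 CPM with PSD-95i and 2683 to 4787 CPM with PICK1i, and their part in these differences was not tested. Before adjustment 3 of the 24 (12.5%) had p under 0.05 with PICK1i against saline, beside 28.8% of all genes (edgeR). With PSD-95i against saline, 0 of the 24 passed (edgeR), at a background of 0% of genes. There 1 (4.17%) had p under 0.05 before adjustment, beside 10.97% of all genes. The histamine receptor Hrh1, also among the 4 most abundant, had a mean of 25.5 CPM and a log2 fold change of 0.10 with PICK1i that did not pass. Markers of serotonin neurons (Tph2, Slc6a4 and Fev) summed to at most 3.24 CPM. Noradrenaline synthesis was as scarce, with Dbh at or below 0.543 CPM, and mast cell markers, the other source of Hdc, summed to at most 0.904 CPM.

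Covariation between members was read within groups, after the group means were taken from log2 CPM. Values of 2 genes in 1 library share that library's depth and make-up, and no batch is given in the labels. Of the 45 pairs, 15 passed an adjusted p of 0.05 over 100000 permutations within groups. Of these 15 pairs, 5 include Slc6a3 or Drd2, whose values fall into separate clusters of libraries. For that reason no pooled p is read for those pairs, and relations of Slc6a3 are given inside its clusters. Of the 28 pairs among the other 8 genes, 10 passed, 9 positive and 1 negative. The share of pairs of other genes that would pass was not computed, so these counts are not read as particular to the members. All 10 had the same sign within each of the 3 groups, but they were selected on the pooled r of the same libraries, so this is not a replication. Within saline r was -0.03 for Hdc with Htr2c, and within PSD-95i it was 0.01 for Th with Slc18a2.

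**Figure D3:**
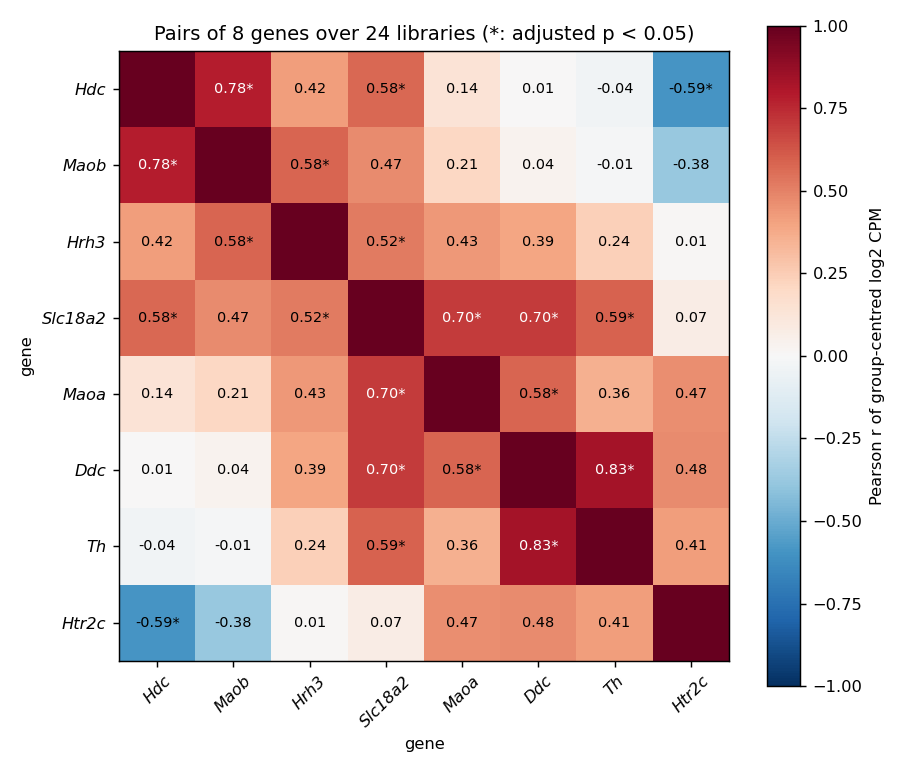
Pearson r of log2 CPM centred within groups, over 24 libraries, for each pair of 8 genes (both axes list the genes, the colour gives r from -1 in blue to 1 in red, and an asterisk marks an adjusted p under 0.05). Hdc groups with Maob, Th with Ddc, and Htr2c runs against Hdc.

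Hdc and Maob rose and fell together. Their r was 0.78 (adjusted p = 6.0e-04, permutation) and rho 0.82 (adjusted p = 4.5e-04, permutation), and r was 0.67, 0.71 and 0.88 within saline, PSD-95i and PICK1i. Leaving out PICK1i replicates 1 and 6, the libraries farthest from the median of Hdc, r was 0.76. Maob is the amine oxidase that histamine neurons themselves express, and it also degrades a histamine metabolite. Hdc also followed Slc18a2, with r = 0.58 and rho 0.52 (adjusted p = 0.0324 and 0.0428, permutation), which was 0.44 without the same pair of libraries. The call was lost without PICK1i replicate 6 (r = 0.48, adjusted p = 0.0645, permutation), saline replicate 4 (r = 0.52, adjusted p = 0.0693), saline replicate 2 (r = 0.57, adjusted p = 0.0525) or PICK1i replicates 1, 2, 5 and 6 together (r = 0.56, adjusted p = 0.0511). Hdc with Hrh3 had r = 0.42 and rho 0.46 and did not pass (adjusted p = 0.0871 and 0.0693, permutation). It passed without saline replicates 2 and 3, with r = 0.56 (adjusted p = 0.0330, permutation), without saline replicate 3 alone (r = 0.52, adjusted p = 0.0449) and without saline replicate 6 (r = 0.55, adjusted p = 0.0175). Hdc with Th gave r = -0.04.

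In the rest of the transcriptome, the genes closest to Hdc included Prph and Msrb2, which are also on the list of tuberomammillary markers given below. Of 15638 genes compared, the closest to Hdc were Prph, an intermediate filament protein, with r = 0.97, Crip2 with 0.86 and Msrb2 with 0.81. Prph ranged from 14.1 to 41.7 CPM, lowest in saline replicate 6 and highest in PICK1i replicate 1, which were also the lowest and highest libraries of Hdc. The list of tuberomammillary markers (Wif1, Prph, Itm2a, Msrb2 and Hcrtr2) followed Hdc with r = 0.88 and rho 0.82 (adjusted p = 9.0e-04 and 6.0e-04, permutation, over 180 relations of members with lists), and with r = 0.81 without PICK1i replicate 1 and saline replicate 4. Within saline, PSD-95i and PICK1i, r was 0.74, 0.94 and 0.97. The lists were chosen with earlier results of these data known. This list holds Prph and Msrb2, named above among the genes closest to Hdc, so its p is not independent evidence. The list was not the only one related to Hdc. The arcuate list (Agrp, Npy, Ghrh, Kiss1, Tac2, Nr5a2, Crabp1 and Tbx3) had r = 0.75 and rho 0.76 (adjusted p = 0.0090 and 0.0036, permutation), with 0.36, 0.99 and 0.82 within saline, PSD-95i and PICK1i. The lateral hypothalamic list described below had r = -0.62 and rho -0.63 (adjusted p = 0.0170 and 0.0261, permutation). Without the 2 libraries farthest from each list's median these r were 0.73 and -0.72. Taken singly, Prph, Msrb2 and Wif1 had r of 0.97, 0.81 and 0.77 with Hdc, and Itm2a and Hcrtr2 had 0.28 and 0.33. Prph and Crip2 were also the closest genes to Maob, at 0.80 and 0.79, followed by Hdc.

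The same list was the one most closely followed by Maob, with r = 0.76 and rho 0.77 (adjusted p = 0.0012 and 6.0e-04, permutation), and by Slc18a2, with r = 0.68 and rho 0.70 (adjusted p = 0.0126 and 0.0042, permutation). Without PICK1i replicate 1 and saline replicate 4, r was 0.77 and 0.62. The list holds Prph, the gene closest to Maob, so its p for Maob is not independent evidence either. The summed level of the list was 92.1 to 139 CPM in saline, 103 to 139 CPM with PSD-95i and 96.9 to 166 CPM with PICK1i. None of its 5 markers was at 0 in every library. The difference in Hdc between groups stands beside these ranges, and the part of the nucleus's share of the tissue in it was not tested.

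**Figure D4:**
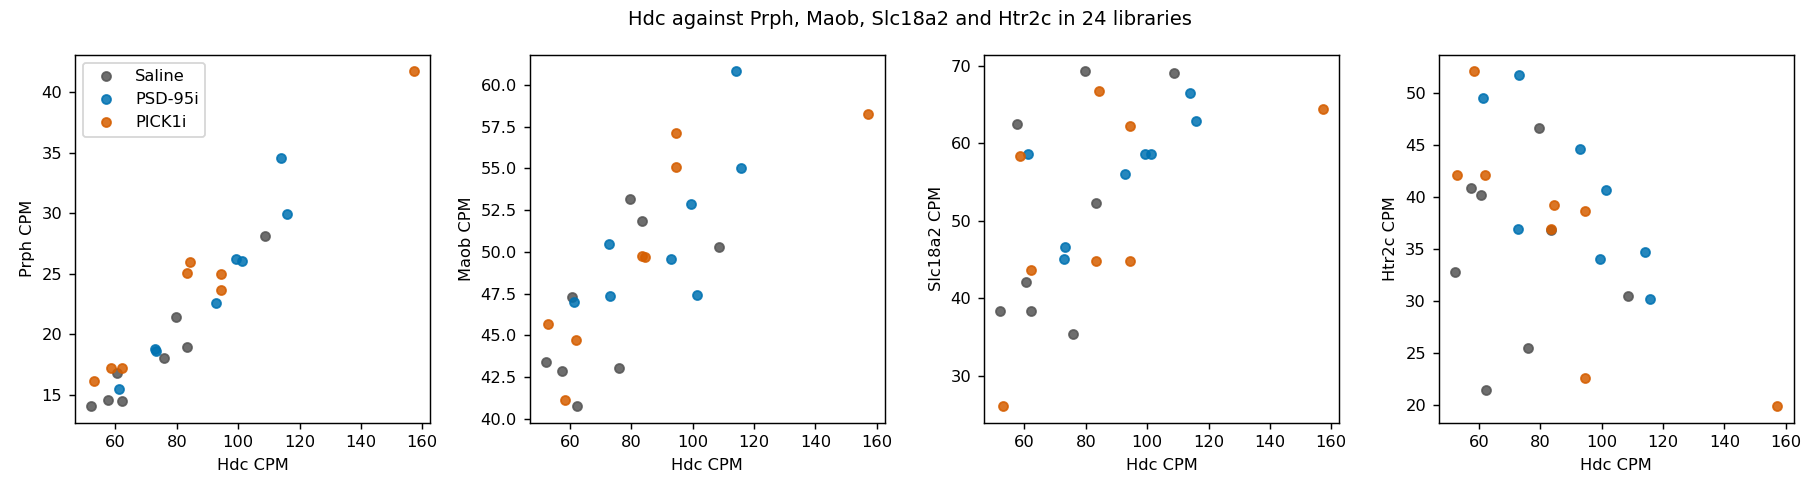
CPM of Hdc (horizontal axis) against CPM of Prph, Maob, Slc18a2 and Htr2c (vertical axes), 1 point per library coloured by group. Prph forms the tightest line with Hdc (r = 0.97 of group-centred log2 CPM), Maob and Slc18a2 rise with it, and Htr2c falls (r = -0.59).

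Htr2c ran the other way. Its r with Hdc was -0.59 and its rho -0.60 (adjusted p = 0.0263 and 0.0249, permutation), a pair singled out after its values were seen, and r was -0.44 without PICK1i replicates 1 and 6. Within saline r was -0.03, against -0.75 and -0.84 within PSD-95i and PICK1i. Over the libraries without saline replicates 2 and 3, r was -0.71. Htr2c was lowest, at 19.9 CPM, in PICK1i replicate 1, where Hdc was highest. The list that Htr2c followed most closely was that of the lateral hypothalamus (Hcrt, Pmch, Lhx9 and Tacr3), with r = 0.80 and rho 0.84 (adjusted p = 9.0e-04 and 6.0e-04, permutation) and r = 0.78 without saline replicates 1 and 2. The summed level of that list ranged from 124 to 791 CPM in saline, 266 to 570 CPM with PSD-95i and 381 to 946 CPM with PICK1i. Hcrt, the orexin precursor, and Pmch, the precursor of melanin-concentrating hormone, had r of 0.74 and 0.60 with Htr2c and -0.59 and -0.35 with Hdc. The closest single gene to Htr2c was Mdga1, at 0.94.

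Th and Ddc, consecutive enzymes of dopamine synthesis, rose and fell together. Their r was 0.83 and rho 0.67 (adjusted p = 6.0e-04 and 0.0207, permutation), with r of 0.88, 0.70 and 0.82 within saline, PSD-95i and PICK1i. Without PICK1i replicates 6 and 8 r was 0.72. Slc18a2 followed Ddc with r = 0.70 and rho 0.57 (adjusted p = 0.0153 and 0.0375, permutation), and r was 0.54 without PICK1i replicates 6 and 8, the libraries farthest from the median of Ddc. Its adjusted p was 0.0514 without PICK1i replicate 6 (r = 0.58, permutation) and 0.103 without PICK1i replicates 1, 2, 5 and 6 (r = 0.58, permutation). Slc18a2 followed Maoa with r = 0.70 and rho 0.70 (adjusted p = 0.0153 and 0.0224, permutation), and 0.65 without saline replicate 3 and PICK1i replicate 6. Th with Slc18a2, the genes that share the cAMP response element printed above, had r = 0.59 (adjusted p = 0.0420, permutation) but rho 0.46 (adjusted p = 0.112, permutation), and r fell to 0.39 without PICK1i replicates 6 and 8, so this relation rests on those libraries. Without saline replicates 2 and 3 its r was 0.50 (adjusted p = 0.141, permutation), and it was also lost without any 1 of 10 single libraries, with adjusted p from 0.0509 to 0.144. The closest genes were Slc6a3, Ret and Ntsr1 to Th (0.86, 0.85 and 0.84), Th, Cd200 and Flnc to Ddc (0.83, 0.83 and 0.82), Gm14373, Adamts2 and Fam163a to Slc18a2 (0.78, 0.77 and 0.76), and Xrcc2, Usp14 and Rab18 to Maoa (0.85, 0.82 and 0.81).

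Astrocyte markers were the list closest to Th, Ddc, Maoa and Hrh3, with r of 0.60, 0.64, 0.46 and 0.76. The adjusted p was 0.0235, 0.0430, 0.241 and 0.0135 (permutation). Saline replicates 2 and 3 were the lowest in this list's score and among the lowest for these genes, and without them r was 0.43, 0.35, 0.20 and 0.52, none of which passed. The corresponding rho over 24 libraries was 0.57, 0.56, 0.46 and 0.68. Among single genes, Hrh3 was closest to Crtac1, Camkv and Ptchd2, at 0.92, 0.90 and 0.86.

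Slc6a3 split the libraries into a low and a high set. In 17 libraries it lay between 2.66 and 9.001 CPM, and in 7 between 19.4 and 73.8 CPM, with no value between. This gap was 1.11 in log2 CPM. The next widest, 0.83, lay inside the high set, between 25.99 and 46.3 CPM, so the high set is itself uneven. The high values were 46.3 and 57.4 CPM in saline replicates 5 and 7, 25.99 and 48.3 CPM in PSD-95i replicates 3 and 5, and 19.4, 65.2 and 73.8 CPM in PICK1i replicates 5, 7 and 8. The high set thus held 2 saline, 2 PSD-95i and 3 PICK1i libraries. The library numbers in the labels run in consecutive pairs of 1 group, and 6 of the 12 pairs held a high library, of which 1 pair (PICK1i replicates 7 and 8) held 2. In the other pairs the partner lay between 2.66 and 6.25 CPM. What the library numbers stand for is not given.

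Of the markers of midbrain dopamine neurons, En1 separated the same 7 libraries fully and the others overlapped between the sets. En1, a transcription factor of the midbrain, lay between 0.659 and 6.87 CPM in the 7 and between 0 and 0.423 CPM in the 17. It did not pass the filter on low counts. The value of 0.659 CPM, in PICK1i replicate 5, lies close to the highest of the 17, so the separation rests on few reads there. Aldh1a1, an enzyme of a subset of midbrain dopamine neurons, lay at 57.4 to 99.8 CPM against 32.9 to 59.2 CPM. Ntsr1 lay at 17.3 to 24.6 against 9.15 to 20.3 CPM, Nr4a2 at 12.2 to 18.4 against 6.79 to 28.5 CPM, En2 at 1.15 to 2.50 against 0.493 to 2.82 CPM and Gucy2c at 1.81 to 3.67 against 0.443 to 6.08 CPM. Slc10a4 lay at 5.11 to 14.2 against 2.54 to 12.6 CPM. Pitx3 and Foxa2 were at most 1.28 CPM everywhere and reached their highest values in the 7. Chrna6 lay at 4.35 to 13.99 CPM in the 7 and at 0.521 to 3.07 CPM in the 17, except 16.3 to 26.3 CPM in saline replicates 2 and 3. The summed list of 10 markers ranged from 67.2 to 145 CPM in saline, 76.1 to 136 CPM with PSD-95i and 64.3 to 183 CPM with PICK1i, and none was at 0 in every library. Ret, Aldh1a1 and Th were the closest genes to Slc6a3 over all libraries, at 0.93, 0.87 and 0.86, values that the split itself shapes. The part of midbrain tissue in the high set was not tested.

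**Figure D5:**
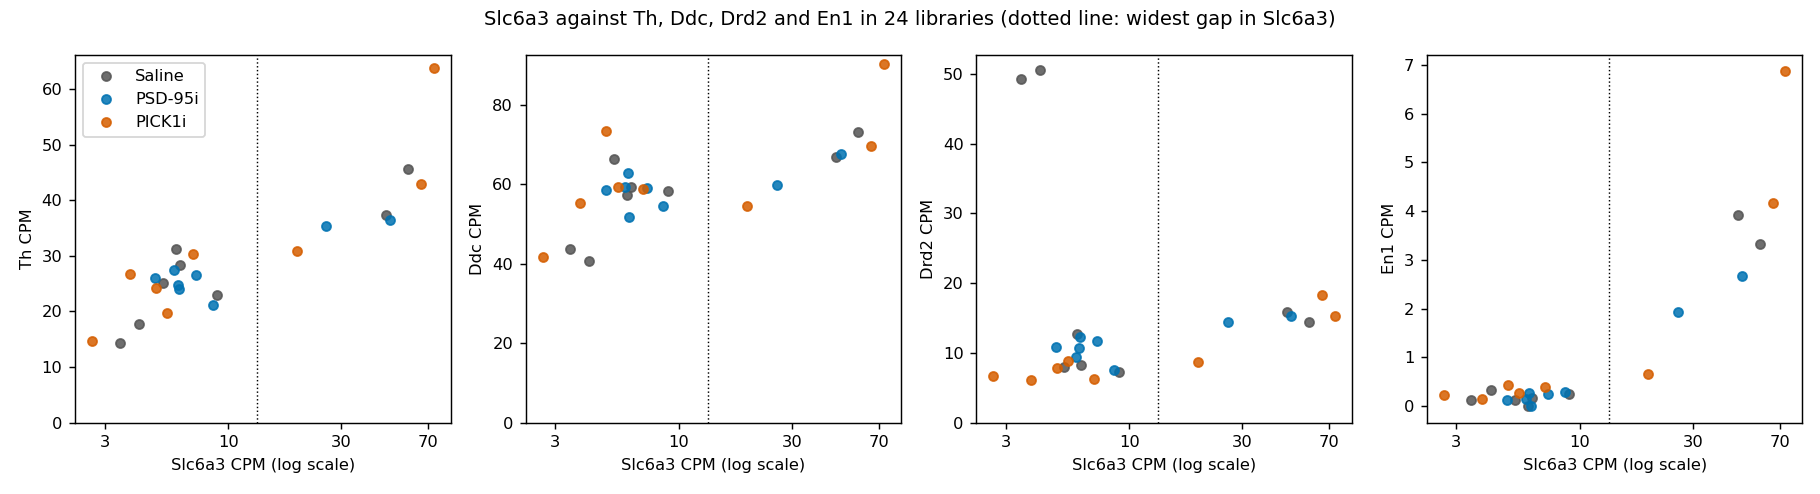
CPM of Slc6a3 (horizontal axis, log scale) against CPM of Th, Ddc, Drd2 and En1 (vertical axes), 1 point per library coloured by group, with a dotted line at the widest gap in Slc6a3. All 7 libraries to the right of the line have more En1 than the 17 to the left, though En1 lay under the filter on low counts. The 2 highest Drd2 values are saline libraries to the left.

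Other members differed less between the sets, which were defined by Slc6a3 and are not groups of the study. Th lay at 30.8 to 63.7 CPM in the 7 and at 14.4 to 31.3 CPM in the 17. Drd2 lay at 8.73 to 18.3 CPM in the 7 and at 6.14 to 12.7 CPM in the 15 others without the pituitary pair. Ddc (54.5 to 90.2 against 40.7 to 73.3 CPM) and Slc18a2 (44.8 to 69.3 against 26.1 to 69.0 CPM) overlapped widely, and Hdc was 57.5 to 92.8 CPM against 52.1 to 157 CPM. The sets were cut on Slc6a3 after its values were seen, and values were not centred by group. The high set is also uneven, and its highest libraries, 65.2 and 73.8 CPM, are both PICK1i. The p-values inside the sets are therefore descriptive and are not evidence of a relation. Th and Slc6a3 had r = 0.82 and rho 0.93 within the 7 libraries (adjusted p = 0.0369 and 0.0202, exact permutation, over 12 relations). Within the 17, r was 0.59 and rho 0.35 (adjusted p = 0.0302 and 0.289, permutation), and r fell to 0.12 without the 2 libraries farthest from the median of Slc6a3, so it rests on them. Th and Ddc kept r = 0.97 and rho 0.96 within the 7 (adjusted p = 0.00238 and 0.0111, exact permutation) and r = 0.72 and rho 0.47 within the 17 (adjusted p = 0.00684 and 0.141, permutation). Without the 2 libraries farthest from the median of Th, these r were 0.91 and 0.46. Slc6a3 and Ddc had r = 0.90 and rho 0.96 within the 7 (adjusted p = 0.00952 and 0.0111, exact permutation), and r = 0.54 and rho 0.26 within the 17 (adjusted p = 0.0369 and 0.371, permutation), with 0.82 and 0.15 without the 2 farthest libraries. Slc6a3 and Slc18a2 had r = 0.82 and rho 0.71 within the 17 (adjusted p = 6.0e-04 and 0.0111, permutation), and 0.68 without the 2 farthest. The 17 hold saline replicates 2 and 3, which were low in Th (14.4 and 17.7 CPM), Ddc (43.7 and 40.7 CPM) and Slc18a2 (38.3 and 35.5 CPM). Except for Drd2, the relations within the 17 were not computed without them, so their part in these r is not known. Within the 7 their r of 0.79 fell to -0.06 in the same way, with rho 0.54 (adjusted p of 0.0370 for r and 0.314 for rho, exact permutation). Drd2 and Slc6a3 had r = 0.79 and rho 0.57 within the 7 (adjusted p = 0.0369 and 0.300, exact permutation), which fell to 0.18 without the 2 farthest, and r = 0.24 within the 15 (adjusted p = 0.393, permutation). Th and Slc18a2 did not pass within the 7 (r = 0.65, adjusted p = 0.139, exact permutation) or within the 17 (r = 0.47, adjusted p = 0.0709, permutation). The genes closest to Drd2 over 24 libraries were Chrnb3, Dmrta2 and Rassf4 at 0.88, 0.88 and 0.86, and without saline replicates 2 and 3 they were Mturn, Chrna4 and Slc6a3 at 0.86, 0.86 and 0.83, values that the clusters shape in the same way.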

How the data were processed

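Poly(A) RNA of hypothalamus was sequenced as 24 stranded libraries with 52-base paired reads. The authors deposited 2 tables of estimated counts without normalisation, for genes and for transcripts. Per the submitters' processing notes the tools were STAR, Salmon and bcl2fastq 2.20.0, with GRCm38 as the build. The sources used here give no version for STAR or Salmon, no annotation release and no strand setting. Of gene values, 94.3% were whole within 0.001.

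After rounding to integers, features were filtered by filterByExpr with a minimum count of 10 (15667 of 45706 genes, 37955 of 109617 transcripts), scaled by TMM and tested in edgeR 4.0.16 (quasi-likelihood F-test, R 4.3.3), in 1 fit of all 24 libraries with 21 residual degrees of freedom. Benjamini-Hochberg adjustment ran over every gene or transcript tested, with 0.05 as the threshold. No replicate pair was identical (0 pairs). Log2 CPM used a prior count of 2. TPM used transcript lengths of the GENCODE annotation of GRCm38. Correlations were tested by two-sided permutation within groups (100000 draws, scipy 1.17.1 and numpy 2.4.6, over 24 libraries), and adjusted over 45 pairs, over 180 relations of the members with the 18 of 22 marker lists that had at least 3 tested markers, or over 12 relations split by Slc6a3. The last used log2 CPM without centring and were permuted across all libraries of a set without regard to group (exact for 7 libraries, otherwise 100000 draws). Both procedures were tested on simulated data. Promoters came from RefSeq (GRCm38.p6), with entries for 9 members and none used for Maob. Total counts limit the precision of low genes, and library totals are given in the text.

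The members and lists were chosen with earlier results of these data known. Named were all members against saline, the 2 with the smallest p between the inhibitors, pathway genes past the test and the 4 most abundant, the 3 nearest genes of each member, the 8 pairs with the largest r and 6 fixed pairs, and the closest marker list of each member. Some genes that this rule names are not reported here. Other settings tried were DESeq2 1.42.0, RLE scaling, omission of the filter, a stricter one (CPM of 1 in 8 libraries, minimum count 30), the replicate number as a block, only 2 groups, leaving out saline replicates 2 and 3, PICK1i replicates 1, 2, 5 and 6 or each library, and, for correlations, no centring, a prior count of 0.5 and ranks. The split of correlations by Slc6a3 and the settings for Qdpr and Spr were added after seeing the data. Replicate numbers did not pair the libraries.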

Additional observations from a re-analysis of the deposited data

Results flagged for a closer look

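Hdc was flagged in 1 of the 30 combinations of a member and a group that were examined for a library standing apart, where chance flags about 5%. In PICK1i replicate 1 Hdc reached 157 CPM, while the other 7 PICK1i libraries lay between 53.0 and 94.5 CPM, and the gap was 0.601 of the group's range (critical value 0.526). The same library held the highest Prph, 41.7 CPM, the lowest Htr2c, 19.9 CPM, and the largest mitochondrial share, 16.6%. The part of any of these in its Hdc level was not tested.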

How the results depend on the processing

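Among the named fold changes, 9 values from other settings and 27 with 1 library left out changed sign. Without saline replicates 2 and 3, PICK1i fold changes were -0.014 for Ddc, -0.12 for Slc18a2, -0.036 for Maoa and -0.048 for Htr2c, and PSD-95i fold changes were -0.11 for Ddc and 0.052 for Drd2. Without a filter Th with PSD-95i was 0.0014. With the replicate number as a block, Th was 0.050 and Slc6a3 0.13 with PSD-95i, and 0 members were called in each comparison. Same-numbered libraries did not deviate together (median r 0.014 over 24 pairs, 5 over 0.1), and with the block 1127 genes were called with PICK1i against saline.

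With 1 library left out, log2 fold changes with PICK1i ran from -0.055 to 0.11 for Slc18a2, -0.029 to 0.067 for Maoa, -8.7e-05 to 0.19 for Htr2c, -0.11 to 1.01 for Slc6a3 and -0.036 to 0.34 for Th. With PSD-95i they ran from -0.038 to 0.075 for Ddc, -0.90 to 0.29 for Slc6a3 and -0.11 to 0.13 for Th. Members called with PICK1i ranged from 0 to 1, genes called from 299 to 2757 against saline and from 0 to 2315 between the inhibitors, and pairs that covary from 8 to 17. The lowest count of pairs, 8, was without saline replicate 2.

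With PICK1i against saline 1434 genes were called, but 0 when only those groups were fitted, 5 without saline replicates 2 and 3, and 0 without PICK1i replicates 1, 2, 5 and 6. Between the inhibitors 0 became 528 under the stricter filter, 1208 without saline replicates 2 and 3 and 1359 with DESeq2. DESeq2 called 1 member, Drd2, with PICK1i, among 1991 genes (13.2%). Without PICK1i replicates 1, 2, 5 and 6, 9 pairs and 28 relations with marker lists passed, against 15 and 17. Qdpr and Spr stayed higher with PICK1i under every setting run. Leaving out PICK1i replicate 1, 5 or 6 or saline replicate 2, 3 or 4 took both calls away, as did saline replicate 6 for Qdpr and PICK1i replicate 2 and saline replicate 5 for Spr, with adjusted p of 0.0505 to 0.0794 (edgeR), and fitting only the 2 groups gave 0.114 and 0.111. The causes were not tested. Low depth limits Drd2 and Slc6a3 most, with estimated counts down to 30 and 12 in a library.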
